A study of Mus musculus with 64 samples.

Results

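Clone V is a mouse pancreatic tumor line, and its response to growth with fibroblasts was measured in 8 of the 64 RNA-sequencing libraries of the series. The libraries were taken by label alone: 4 of clone V in mono-culture and 4 of clone V cells sorted from coculture by their GFP signal, with 48 h of coculture. The other 56 libraries held clones E, H, K, M, N and T and the line KPC1, each with 4 libraries per culture, and they served to ask where the response of clone V departed from the mean response of the 7 other lines. Clone V and the 6 other lettered clones were subcloned from a single tumor line of the KPC mouse, in which Pdx1-Cre, active in the pancreatic epithelium, switches on the mutant alleles of the model, Trp53 among them, and the labels give the strain as C57BL/6 mixed for every group; the origin of KPC1 was not given in the sources used here. Each lettered line was thus 1 clone, the labels attach the same sorting text to mono-culture libraries, and they do not say whether the 4 libraries of a group came from separate cultures, so that the p-values measure the spread between these libraries, which may be technical.

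Totals were 14424227 to 19486215 counts in the mono-culture libraries of clone V and 15035589 to 17552103 in its coculture libraries, against 11178721 to 21333683 over all 64. Levels are given as CPM, counts scaled to the library total with TMM factors, in the order of replicates 1 to 4, and are compared only within a gene. Tests used edgeR's quasi-likelihood method over 14134 genes, with p-values adjusted by Benjamini-Hochberg and a gene called at an adjusted p under 0.1. Within a culture the replicates of clone V correlated at r = 0.976 to 0.988 over genes, and between cultures at 0.925 to 0.95. The epithelial genes Krt8, Krt18, Cdh1 and Sox9 were present in all 8 libraries, whereas Epcam, Cldn4 and Cldn7 stood at or below 0.312 CPM in each of them. Trp53 was at 361 CPM in mono-culture and 383 in coculture, which checks that the gene was expressed but not which allele.

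As background, cells that run short of amino acids or accumulate misfolded proteins phosphorylate the translation factor eIF2α, through GCN2 or PERK among other kinases, and this integrated stress response (ISR) favors translation of ATF4. ATF4 pairs with C/EBP-family proteins at composite DNA elements and raises genes for amino acid synthesis, amino acid uptake and tRNA charging. The unfolded protein response shares its PERK arm with this program and adds arms that raise chaperones of the endoplasmic reticulum. In pancreatic tumors fibroblasts surround the epithelial cells, deposit collagen and exchange metabolites and growth factors with them.

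Because the ISR genes had the largest positive median difference from the other lines in clone V, the letters of the ATF4 composite element, TGATGNAA, were searched on both strands in the 250 bases before each gene's start (RefSeq promoter windows, GRCm38.p6, matched by symbol). They occurred in 7 of the 26 ISR genes with a window (26.9%: Asns, Chac1, Nupr1, Vldlr, Slc7a11, Pycr1 and Pck2) and in 3 of 9 genes of the tRNA synthetase list (33.3%: Aars, Gars and Tars). Over all tested genes with a window the share was 2.44% (239 of 9782), and over all windows 3.91% (1056 of 27025). The stretches below, from 6 genes that rose in clone V, are written 5′ to 3′ on the gene's own strand, with the matching letters in capitals; where the match lies on the opposite strand the capitals show its reverse complement.
Asns, chr6:7693214-7693243, minus strand: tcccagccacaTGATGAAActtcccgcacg
Slc7a11, chr3:50443615-50443719, minus strand: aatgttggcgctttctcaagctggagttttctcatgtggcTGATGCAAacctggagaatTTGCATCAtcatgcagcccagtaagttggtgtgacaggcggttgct
Pycr1, chr11:120643804-120643891, minus strand: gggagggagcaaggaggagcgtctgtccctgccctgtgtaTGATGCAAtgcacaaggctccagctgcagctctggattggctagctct
Chac1, chr2:119351009-119351096, plus strand: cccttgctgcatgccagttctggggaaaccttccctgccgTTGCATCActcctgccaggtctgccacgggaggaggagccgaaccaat
Pck2, chr14:55540123-55540210, plus strand: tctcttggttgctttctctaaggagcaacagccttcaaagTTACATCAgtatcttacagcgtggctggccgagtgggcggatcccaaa
Gars, chr6:55037931-55038000, plus strand: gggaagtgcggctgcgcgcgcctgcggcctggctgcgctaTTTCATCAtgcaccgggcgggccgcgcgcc
The Asns match begins 23 bases before the RefSeq start used for its window. It lies inside an exon of another annotated transcript and within the gene's span given below, so only 30 bases are shown. Slc7a11 holds 2 matches, 66 and 47 bases before its start. The unfolded protein response list had a match in 1 of 17 windows (5.88%), the cholesterol list in 1 of 19 (5.26%), and neither the 19 Wnt and Notch windows nor the 36 windows of genes that rose more in clone V than in every other line held these letters. A match is a description of the sequence and not a bound site. The ISR list holds known ATF4 targets such as Asns, so a share above that of all genes could be foreseen whatever clone V did. The shares describe the lists and not the response of clone V.

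Coculture changed a large part of the transcriptome of clone V. Of 14134 genes, 4239 were called higher (30%) and 4449 lower (31.5%), and 1166 of the former and 1622 of the latter moved by more than 2-fold. In 6695 of the 8688 called genes the coculture and mono-culture libraries did not overlap, a separation seen in 48.56% of all genes. Most of this was shared with the other lines. Of the called genes, 7797 (89.74%) had the sign of the mean response of the other 7 lines, and over all genes the 2 responses correlated at r = 0.715 (0.778 over the 10387 genes at 1 CPM or more in all 16 groups). These are correlations over genes, which share fibroblast contact and sorting and are not independent. By line, r was 0.761 with clone H, 0.689 with KPC1, 0.652 with clone T, 0.622 with clone E, 0.577 with clone N, 0.477 with clone M and 0.456 with clone K. In a direct test of the 2 responses, 916 genes differed between clones V and H, 3012 between V and T, and 5607 and 5961 between V and clones M and K.

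Set against the mean response of the other lines, the response of clone V was more positive in 1877 genes (13.3%) and more negative in 2600 (18.4%), of which 293 and 959 differed by more than 2-fold. In 821 of these genes clone V moved significantly in the direction opposite to the mean of the others, 307 upward and 514 downward. This difference and the response itself share the clone V libraries. A stricter comparison asked for a call against each of the 7 lines in turn. It left 55 genes with a higher response in clone V than in any other line (0.389%) and 139 with a lower one (0.983%). These last counts depended on single libraries of both cultures. They were 30 and 86 without mono-culture replicate 2 and 25 and 89 without mono-culture replicate 4. Without coculture replicate 3 they were 38 and 103, and without coculture replicate 4 they were 71 and 174. In the sample titles 2 coculture libraries of clone V, and none of its mono-culture libraries, were numbered above 43. What the number marks is not stated. Without these 2 libraries the counts were 82 and 102, with 122 of the 194 genes shared.

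**Figure D1:**
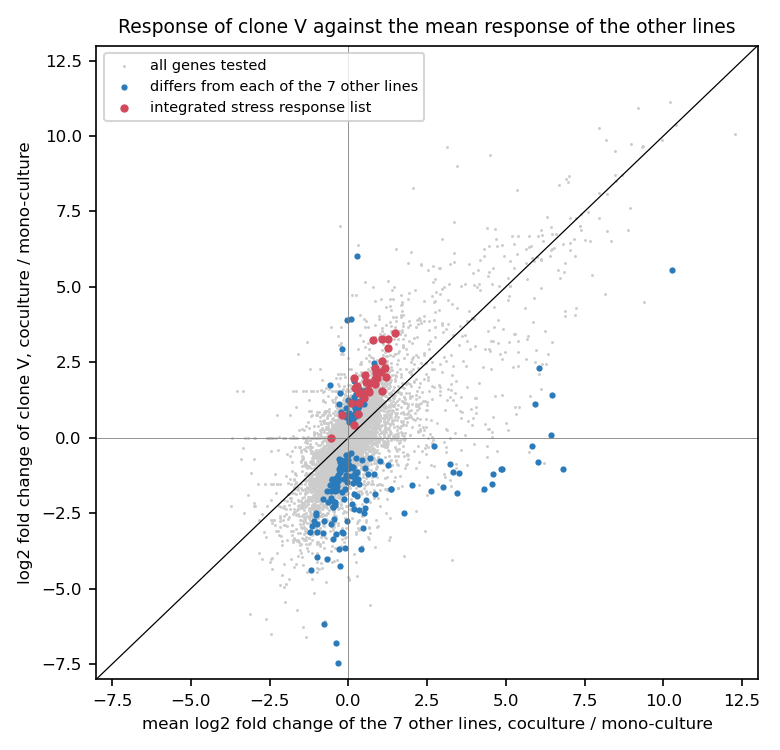
Each point is a gene, with the mean log2 fold change (coculture over mono-culture) of the 7 other lines on the x axis and that of clone V on the y axis; the line marks equal responses. Red points, the 32 genes of the integrated stress response list, lie above the line in 32 of 32 cases, and blue points mark the 194 genes whose response differed from each other line.

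The integrated stress response and amino acid synthesis list was the group in which clone V stood furthest above the other lines. Of its 32 genes, 31 rose in clone V and none fell, with a median log2 fold change of 1.83 against a median of 0.65 for the mean of the other lines. Over all tested genes 30% rose in clone V and 31.5% fell. Against the mean of the others 13.3% had a higher response and 18.4% a lower one. The list counts here and below stand against these shares. Here and wherever no gene of a list was called in a direction, edgeR at an unadjusted p under 0.05 and DESeq2 also gave 0 genes. The rise was larger than the mean of the others in 30 genes, by a median of 1.15 on the log2 scale, and clone V had the largest fold change of the 8 lines in 27. Over all tested genes clone V had the largest fold change in 13.2%. The exceptions were Slc7a3, an arginine and lysine transporter near 1 CPM in every library of clone V (log2 fold change -0.01 ± 0.44, SE), and Slc38a2, the amino acid transporter SNAT2, which rose (0.42 ± 0.13) without a called difference from the others (adjusted p = 0.19, or 0.0918 without coculture replicate 1).

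Atf4 itself held 409, 352, 509 and 295 CPM in mono-culture and 1150, 1120, 1150 and 945 in coculture. Every coculture library lay above every mono-culture library. The log2 fold change was 1.48 ± 0.18 (SE; adjusted p = 9.3e-10), against a mean of 0.47 in the other lines, whose values ran from -0.05 in clone K to 0.95 in clone T, and the difference of 1.01 ± 0.19 was called (adjusted p = 4.0e-05). Eif2ak4, which encodes the amino acid sensor kinase GCN2, was at 43.1 CPM in mono-culture and 44.6 in coculture, with no called change (log2 fold change 0.05 ± 0.10). ATF4 protein and eIF2α phosphorylation are not measured by these libraries.

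Asns, the enzyme that makes asparagine from aspartate and glutamine (chromosome 6, 7675169 to 7693254, minus strand, GRCm38), held 142, 122, 154 and 55 CPM in mono-culture and 596, 661, 625 and 464 in coculture. Its log2 fold change of 2.31 ± 0.28 was the largest of the 8 lines, in which the others ran from 0.60 in clone K to 1.68 in clone T. The difference from their mean was 1.15 ± 0.29 (adjusted p = 0.0022). In level, however, clone V stayed inside the range of the other lines, whose mono-culture means ran from 32.1 to 470 CPM and coculture means from 75.5 to 775. Asnsd1, a gene that carries an asparagine synthase domain, did not pass the test (0.20 ± 0.11), though it did without mono-culture replicate 2 (adjusted p = 0.0141) or coculture replicate 3 (0.0543).

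The serine branch rose as a unit. Phgdh, which commits glycolytic 3-phosphoglycerate to serine, was at 381, 402, 433 and 315 CPM in mono-culture and 1130, 966, 988 and 707 in coculture (log2 fold change 1.31 ± 0.13). Psat1, the next enzyme, went from 94.2, 86, 107 and 38.6 CPM to 449, 433, 410 and 340 (2.32 ± 0.21). Psph, the last step, rose by 2.14 ± 0.22. Psat1 and Phgdh responded more in clone V than in each of the 7 other lines, whose fold changes reached at most 1.21 for Psat1 and 0.78 for Phgdh, although for Phgdh this was lost without mono-culture replicate 4 or coculture replicate 1. Psph exceeded the mean of the others by 1.27 ± 0.23 but not each line, since the largest response elsewhere was 1.88.

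Mitochondrial folate enzymes followed the same course. Shmt2 rose by 1.77 ± 0.22 on the log2 scale and Mthfd2 by 2.56 ± 0.34, from 41.3 to 243 CPM. Aldh1l2, the mitochondrial formyltetrahydrofolate dehydrogenase, showed the widest gap: 12.1, 9.28, 16 and 5.68 CPM in mono-culture against 69.2, 112, 114 and 111 in coculture. Its log2 fold change of 3.24 ± 0.28 was compared with 1.74 in clone H, 1.56 in clone E and -0.57 in clone M, and it differed from each of the 7 lines. The starting level of Aldh1l2 in clone V was below that of every other line (25.5 to 316 CPM), and its coculture level fell within theirs (38.2 to 382 CPM).

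**Figure D2:**
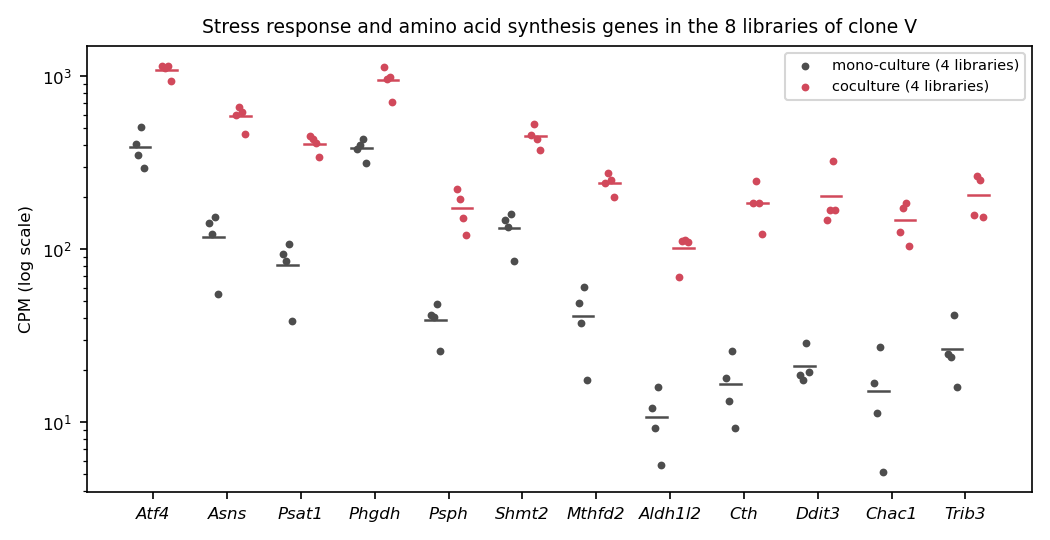
CPM on a log axis for 12 genes of the integrated stress response list in the 8 libraries of clone V; points are libraries in the order of replicates 1 to 4 and bars are group means. For each of the 12 genes the 4 coculture points lie above the 4 mono-culture points, and mono-culture replicate 4 is the lowest point for all of these genes except Ddit3.

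Several stress-response genes rose by about as much as Aldh1l2. Ddit3, which encodes the transcription factor CHOP, rose from 18.9, 17.6, 28.6 and 19.6 CPM to 148, 168, 324 and 169 (log2 fold change 3.26 ± 0.32). Chac1, which degrades glutathione, rose by 3.28 ± 0.38 and Trib3, a pseudokinase target of ATF4 and CHOP, by 2.96 ± 0.36. Cth, which makes cysteine from cystathionine, rose from 18.1, 13.3, 25.8 and 9.3 CPM to 185, 247, 185 and 123 (3.48 ± 0.35). Each of these 4 genes exceeded the mean of the other lines by 1.69 to 2.20 on the log2 scale, and in none of them was the difference called against all 7 lines separately. Vldlr, a lipoprotein receptor gene whose promoter also holds the motif, went from 28.5, 28.6, 42.4 and 41.1 CPM to 106, 117, 198 and 128 (1.97 ± 0.23), while the others averaged 0.17, and the stress-induced chromatin protein gene Nupr1 rose by 1.99 ± 0.25.

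Uptake genes rose more moderately. Slc3a2, the shared heavy chain of several amino acid exchangers, rose by 1.5 ± 0.13, Slc1a5, a glutamine and neutral amino acid transporter, by 1.81 ± 0.18, and Slc7a11, the cystine and glutamate exchanger, by 1.71 ± 0.33. For Slc7a11 the other lines averaged 0.29, and the difference of 1.42 ± 0.35 was called (adjusted p = 0.0019). Slc1a3, the aspartate and glutamate transporter, stood at 0 in 3 mono-culture libraries of clone V and reached at most 0.566 CPM in coculture, in the library order of the fibroblast marker Thy1 given further on. Gpt2, which links alanine and glutamate, rose by 2.19 ± 0.25. The proline enzyme Pycr1 and Pck2, mitochondrial phosphoenolpyruvate carboxykinase, whose promoter stretches are shown above, rose by 1.56 ± 0.21 and 0.78 ± 0.17 and were among the members with the smallest called differences from the other lines (0.49 ± 0.22, adjusted p = 0.098, and 0.48 ± 0.19, adjusted p = 0.049). The Pycr1 difference was no longer called without any 1 library other than mono-culture replicate 3 (adjusted p of 0.108 to 0.317), nor that of Pck2 without mono-culture replicate 4 (0.164) or coculture replicate 2 (0.216).

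Summed over the 32 genes, clone V held 3024, 2817, 3693 and 2282 CPM in mono-culture and 8536, 9480, 9455 and 7349 in coculture, means of 2950 ± 584 and 8710 ± 1000 (SD, n = 4). The 2 sets did not overlap, and an exact two-sided permutation test gave p = 0.0286, the smallest value that 4 against 4 libraries allow. The list was written with earlier results known, and 31 of its genes were called higher in these same libraries. This p therefore adds no separate support. The ratio of the means was 2.95 in clone V, 1.99 in clone H, 1.85 in clone E, 1.83 in clone T, 1.36 in KPC1, 1.22 in clone M, 1.18 in clone N and 1.11 in clone K. In mono-culture clone V ranked 6 of the 8 lines and in coculture 4, so that its coculture sum was below those of KPC1 (10600 ± 569), clone T (9090 ± 1470) and clone N (8950 ± 973), within their spread for T and N. Members called higher numbered 31 in clone V, 29 in H, 26 in E, 25 in T, 17 in M, 16 in KPC1, 9 in K and 8 in N.

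**Figure D3:**
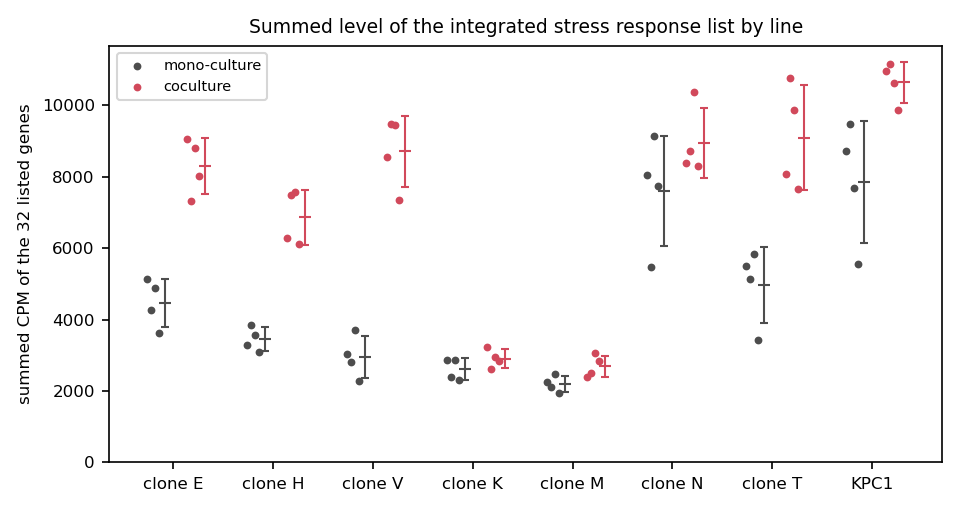
Summed CPM of the 32 listed genes (y axis, from 0) in each line; points are libraries, and bars give the mean and SD of 4. The mono-culture points of clone V lie between 2280 and 3690 and its coculture points between 7350 and 9480, while clones K and M stay between 1950 and 3240 in both cultures.

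The tRNA synthetase list holds aminoacyl-tRNA synthetases, which load amino acids onto tRNA, and Xpot, a tRNA export receptor, and it rose in 13 of 13 genes in clone V, with a median log2 fold change of 1.40 against 0.62 in the mean of the others. Sars, the seryl enzyme, went from 485, 477, 557 and 384 CPM to 1450, 1360, 1540 and 1170 (1.54 ± 0.14) and was the member that differed from each other line, though not without mono-culture replicate 2 or 4 or coculture replicate 1 or 3. Nars and Gars, the asparaginyl and glycyl enzymes, rose by 1.54 ± 0.17 and 1.58 ± 0.18. The difference from the mean of the others was called in 11 of 13 genes; it was not for Lars (0.35 ± 0.19, adjusted p = 0.17) and Mars (0.31 ± 0.15, adjusted p = 0.14), whose own rises were 0.96 and 0.84. Of the single libraries left out, only coculture replicate 4 brought a call for Lars (adjusted p = 0.0999) and only mono-culture replicate 3 for Mars (0.0699).

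Genes of the unfolded protein response, which expands the folding capacity of the endoplasmic reticulum, rose in 17 of 20 cases and none fell (median 0.76 against 0.28). Xbp1, the transcription factor of the IRE1 arm, held 34.1, 28.5, 32.9 and 25 CPM in mono-culture and 63.2, 91.4, 93.9 and 77.4 in coculture. Its log2 fold change of 1.44 ± 0.14 lay above each other line, whose highest value was 0.43. Hspa5, the lumenal chaperone BiP, rose from 555, 498, 506 and 444 CPM to 1310, 1530, 2810 and 1670, with coculture replicate 3 the highest. Manf, a secreted stress-induced protein, and Hsp90b1, the chaperone GRP94, rose by 1.22 ± 0.13 and 1.2 ± 0.15 and also differed from each of the 7 lines, for Hsp90b1 only while mono-culture replicates 2, 3 and 4 and coculture replicates 3 and 4 were all kept. The chaperone Hyou1 rose by 1.51 ± 0.18 and Herpud1, a component of the degradation machinery, by 1.22 ± 0.14. In all, 17 of the 20 differences from the mean of the others were called, every one of them higher.

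**Figure D4:**
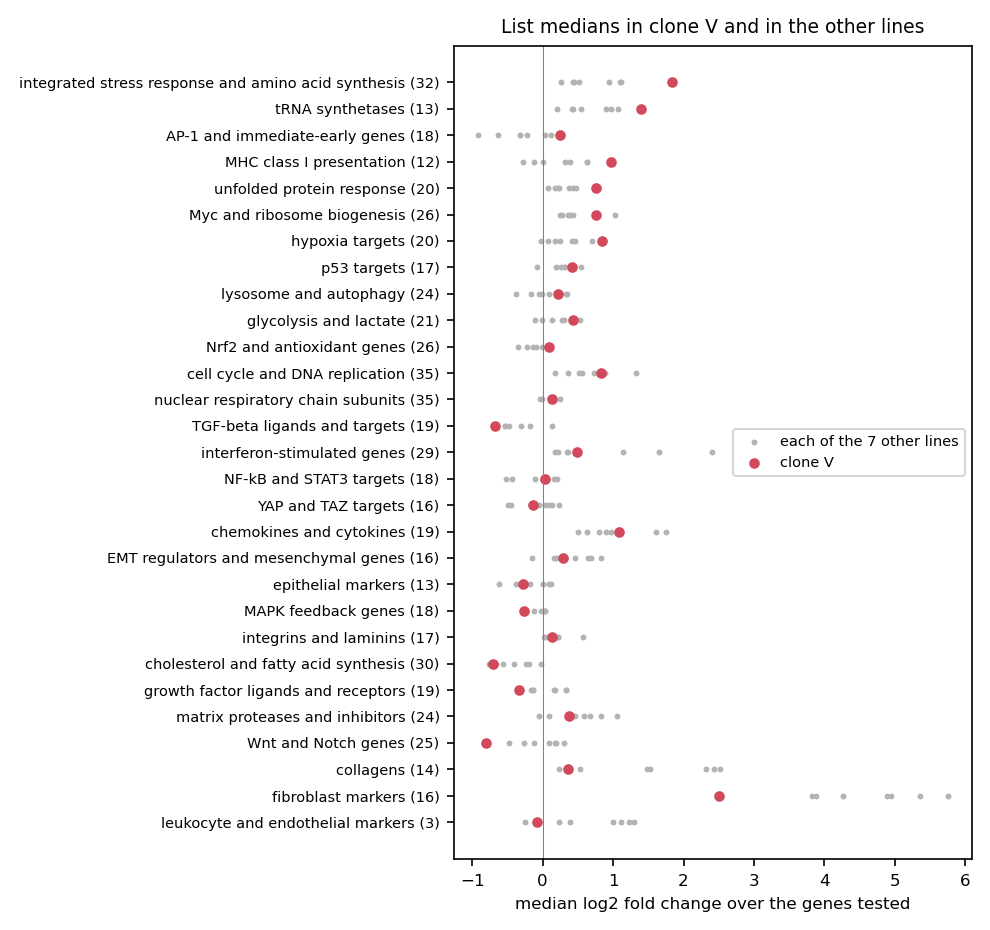
Median log2 fold change over the tested genes of each of 29 gene lists (number of genes in parentheses) in clone V (red) and in each of the 7 other lines (gray). For the integrated stress response list the clone V median of 1.83 lies above the other lines (0.26 to 1.11), and for the Wnt and Notch list its median of -0.81 lies below them (-0.47 to 0.31).

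Levels near 0 make fold changes unstable, so the largest changes were named among genes with a mean of at least 5 CPM over the 8 libraries of clone V. Among called genes without overlap, the 8 largest rises from at least 1 CPM in mono-culture were Col1a2 (described with the fibroblast genes), Areg, Ptgs2, Avil, Grem1, Stbd1, Acot2 and Recql4, with log2 fold changes of 3.52 to 5.55. Ptgs2, the inducible cyclooxygenase of prostaglandin synthesis, went from 17.1, 15.7, 47.3 and 13.8 CPM to 248, 434, 552 and 275 (4.01 ± 0.59). Areg, a ligand of the EGF receptor, went from 2.38, 1.74, 4.62 and 1.16 CPM to 25.7, 32.6, 69.7 and 39.2 (4.08 ± 0.62). Both rises exceeded the mean of the other lines, by 2.60 ± 0.59 and 2.36 ± 0.66, although other lines reached comparable coculture levels (up to 360 CPM for Ptgs2 and 97.8 for Areg). Acot2, a mitochondrial acyl-CoA thioesterase, rose by 3.54 ± 0.30, and the DNA helicase gene Recql4 by 3.52 ± 0.33.

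Among genes with a mean of at least 5 CPM in clone V that differed from every other line, the 8 largest positive differences were those of Grem1, Aldh1l2, Deptor, Slc26a11, Cyb5r1, Psat1, Pcsk6 and Gyk. Grem1, a secreted antagonist of BMP ligands, held 2.92, 2.92, 5.49 and 3.62 CPM in mono-culture and 32.8, 46.6, 61.2 and 84.9 in coculture (log2 fold change 3.92 ± 0.31). Clone H also raised it (2.54), and the other lines ran from -1.11 to 0.14. The 4 coculture libraries kept, for Grem1, the order they had for the fibroblast marker Thy1 (5.82, 7.9, 10.7 and 17.1 CPM); the part of fibroblast RNA in this result was not tested. Deptor, an inhibitor that binds mTOR, rose from 36, 26.2, 35.9 and 27.1 CPM to 68.1, 83.2, 122 and 77.4 (1.49 ± 0.17), whereas the other lines ran from -1.26 to 0.46. Pcsk6, a proprotein convertase, rose by 1.12 ± 0.17 with at most 0.15 elsewhere, and Gyk, glycerol kinase, by 1.62 ± 0.16 with at most 0.93 elsewhere. Aldh1l2, Deptor, Psat1 and Pcsk6 differed from each line whichever library was left out. Without mono-culture replicate 2 this was lost for Grem1, Slc26a11, Cyb5r1 and Gyk, without coculture replicate 3 for the last 3 of these, and without mono-culture replicate 4 for Cyb5r1 and Gyk. Single libraries also decided it for Slc26a11 (mono-culture replicate 1), Cyb5r1 (coculture replicate 1) and Grem1 (coculture replicate 4). Of the 55 genes, 30 (54.5%) had their lowest mono-culture level of the 8 lines in clone V, against 12.5% of all genes, and 7 (12.7%) had their highest coculture level there, against 12.9%. The mono-culture libraries enter both the fold change and this ranking.

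Of 25 Wnt and Notch genes 13 fell in clone V and 6 rose, where 31.5% of all genes fell and 30% rose. Their median log2 fold change was -0.81, against 0.10 in the mean of the others. In 14 the response was lower than that mean and in 2 higher, where 18.4% and 13.3% of all genes were. Wnt signals stabilize β-catenin, and Axin2 and Lgr5 are among its usual transcriptional readouts. Wnt9a, a ligand, fell from 15.6, 22.2, 10.2 and 22.2 CPM to 1.07, 1.35, 0.542 and 2.44 (-3.68 ± 0.39), and it differed from each other line, whose values ran from -1.31 to 1.45. Axin2 fell from 14.9, 17.1, 11.2 and 20.7 CPM to 1.87, 1.69, 0.844 and 3.51 (-3.00 ± 0.39). Lgr5, a receptor for R-spondins, fell from 59.6, 118, 60.3 and 132 CPM to 4.01, 4.46, 0.301 and 5.49 (-4.69 ± 0.52). In all 3 genes mono-culture replicates 2 and 4 were the higher pair and coculture replicate 3 the lowest. The mono-culture means of clone V were the highest of the 8 lines for all 3: 17.6, 16 and 92.4 CPM, against at most 11.2, 3.09 and 38.6 elsewhere.

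Receptors fell too. Fzd2, a Frizzled receptor, fell by 1.61 ± 0.20 and Notch2 by 1.09 ± 0.16, each more than the mean of the others (adjusted p = 0.0015 and 0.0074). Apcdd1, a membrane inhibitor of Wnt that is not on the list, fell from 143, 184, 142 and 222 CPM to 32.4, 37.4, 22.7 and 42.8 (-2.35 ± 0.18), while the other lines ran from -1.07 to 1.04. An opposite course was taken by Wnt7a, which rose from 13.7, 17.4, 15.8 and 13.1 CPM to 29.8, 40.5, 82.1 and 29.7 (1.60 ± 0.32), above the mean of the others by 1.40 ± 0.36.

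At the same limit of 5 CPM, the 8 largest falls without overlap in clone V were those of Kcnh1, Islr, Lgr5, Cacna1g, Atoh8, Lrrn1, Mme and Stra6, with log2 fold changes of -4.84 to -4.02. Cacna1g, a T-type calcium channel, fell from 58.4, 69.5, 58 and 80.3 CPM to 3.41, 4.12, 1.81 and 3.46 and differed from each other line, all of which fell less (-2.11 to -0.14). Kcnh1, a potassium channel, fell from 16, 16.8, 15.3 and 17.4 CPM to 0.201, 1.22, 0.181 and 0.68. Islr fell from 14.7, 48.3, 14.3 and 36.6 CPM to 0.535, 1.22, 0.301 and 2.15, with a difference from the mean of the others of -4.75 ± 0.62. Stra6, the cell-surface receptor for retinol-binding protein, fell by 4.02 ± 0.59 on the log2 scale, but the other lines also fell (mean -2.75) and the difference was not called (adjusted p = 0.13). Atoh8, a basic helix-loop-helix factor, fell by 4.37 ± 0.63 with a mean of -2.44 in the others.

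Lipid synthesis fell as a group. None of the 30 cholesterol and fatty acid synthesis genes rose in clone V and 25 fell, with a median log2 fold change of -0.70, a direction shared with the mean of the other lines (-0.39). Clones E and T had medians of -0.76 and -0.67, so that clone V was not the lowest of the lines; 10 genes fell more than the mean of the others and none less. Insig1, which retains the sterol regulator SREBP in the endoplasmic reticulum, went from 120, 138, 116 and 121 CPM to 37.9, 47.6, 56.6 and 44.1 (-1.41 ± 0.18). Scd2, a fatty acid desaturase, went from 4060, 4450, 3970 and 4100 CPM to 1500, 2010, 1980 and 1960 (-1.15 ± 0.17). Srebf1, which encodes SREBP1, fell by 0.77 ± 0.10 and the elongase Elovl6 by 1.11 ± 0.17, each the largest fall of the 8 lines.

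The 139 genes with a lower response in clone V than in each other line were mostly genes that fell in clone V. In 128 clone V was called lower in coculture, in 4 it was called higher and in 7 neither. Clone V had the highest mono-culture mean of the 8 lines in 69 of them (49.6%, against 12.8% of all genes) and the lowest coculture mean in 50 (36%, against 15.7%); the same libraries enter the choice of genes. Fgfr1, a receptor for fibroblast growth factors, was expressed in all lines and held 283, 257, 262 and 264 CPM in mono-culture and 124, 141, 140 and 127 in coculture (-1 ± 0.14), with the other lines between -0.34 and 0.74. Mmp15, a membrane-type matrix metalloproteinase, fell from 9.71, 18.6, 10.2 and 18.5 CPM to 1.34, 1.89, 1.33 and 1.98.

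In 21 of the 139 genes the 7 other lines all stood below 1 CPM in mono-culture, so that their fold changes measure appearance from near 0 and only levels are given. Rbms3, which encodes an RNA-binding protein, held 31.4, 30.8, 24.4 and 32.6 CPM in mono-cultured clone V and 14.3, 16.5, 13.4 and 14.4 in coculture, against group means of 0 to 0.261 and 2.45 to 4.52 CPM in the other lines. Clone V therefore had the higher level in both cultures and the opposite direction. The part of fibroblast RNA in the coculture levels was not tested, for Rbms3 or for the other genes of this paragraph. Notch3, a Notch receptor that was also detected in mono-cultured clone H, held 4.62, 8.56, 3.87 and 8.01 CPM and then 1.67, 6.76, 3.5 and 8.89, without a called change, while the other lines went from means of 0 to 1.66 to means of 5.39 to 19.1. Fam198b rose in clone V, from 10.8, 12.4, 8.36 and 5.68 CPM to 17.2, 20.7, 21.5 and 21.8, in the library order of Thy1, and the other lines went from at most 0.439 to means of 4.37 to 16.1. Rftn1, Robo1, Cacng7, Trps1 and Col1a2 completed the 8 largest negative differences at the limit of 5 CPM, and for each of them clone V had the highest mono-culture mean of the 8 lines. Robo1 no longer differed from each line without mono-culture replicate 2 or coculture replicate 1 or 3, nor Trps1 without any 1 library other than coculture replicates 2 and 4.

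**Figure D5:**
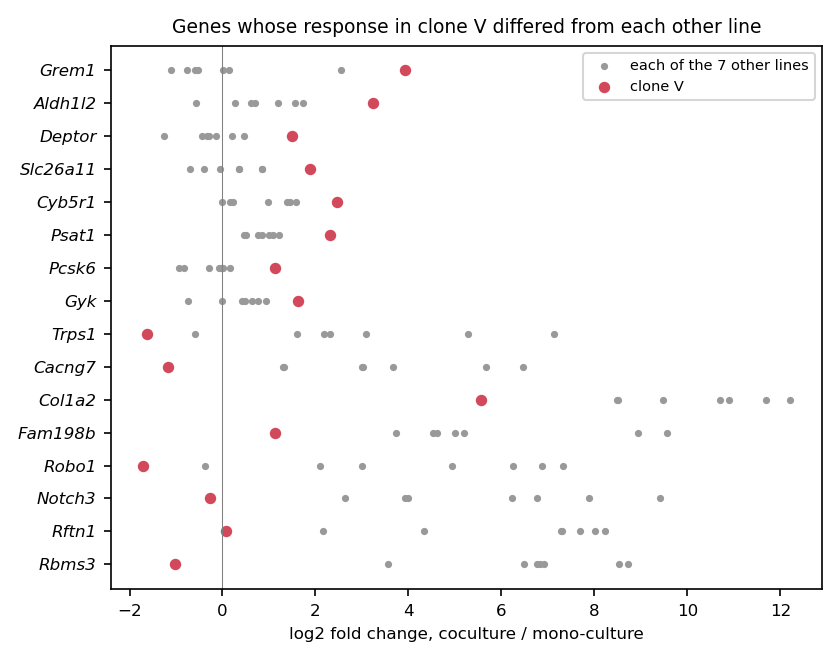
Log2 fold change, coculture over mono-culture, of the 8 largest positive and 8 largest negative differences among genes with a mean of at least 5 CPM in clone V whose response there (red) differed from each of the 7 other lines (gray). Aldh1l2 reached 3.24 in clone V and at most 1.74 elsewhere; for Rbms3, Rftn1 and others in the lower rows the gray points rest on mono-culture levels near 0.

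Fibroblast genes were present in the sorted coculture libraries of clone V as in those of the other lines. Of 20 fibroblast markers, 5 stood at 0 in all 4 mono-culture libraries of clone V and 1 in coculture, and 5 went from below 1 CPM to at least 1 CPM. Thy1, a fibroblast surface protein, was at 0 in mono-culture and at 5.82, 7.9, 10.7 and 17.1 CPM in coculture, at least 228-fold higher when set against 3 counts over the mono-culture group. Postn, a matrix protein of activated fibroblasts, was at most 0.0679 CPM in mono-culture and 6.62, 33.4, 45.6 and 78.9 in coculture; Col5a2 and the collagen cross-linking enzyme Lox rose from at most 0.0646 CPM to 26, 66.7, 88.7 and 160 and to 11.4, 34.1, 44.4 and 89.8. Replicate 1 was the lowest and replicate 4 the highest in all 4 genes. The mean coculture levels of the other lines were similar, 5.98 to 16.1 CPM for Thy1 and 38.1 to 73.5 for Postn. These are bulk libraries, in which more fibroblasts in the sort and more fibroblast-type RNA per tumor cell cannot be told apart.

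The summed level of the 20 markers was 1430 to 1750 CPM in mono-culture and 1280 to 2540 in coculture (exact two-sided permutation p = 0.343), because Fbln2, a matrix protein at 1370, 1400, 1220 and 1500 CPM in mono-cultured clone V, outweighed the rest and was at 881, 1050, 1060 and 963 in coculture (log2 fold change -0.47 ± 0.23, adjusted p = 0.072). That call was lost without mono-culture replicate 1, 2 or 4 or coculture replicate 1 or 4, with adjusted p of 0.101 to 0.162. Of the 16 markers with enough counts to test, 11 rose and 1 fell in clone V, where 30% of all genes rose and 31.5% fell. In 8 the response was lower than the mean of the others, against 18.4% of all genes. Col1a2, a chain of type I collagen, rose from 4.21, 2.61, 2.99 and 4.2 CPM to 57.5, 145, 144 and 306, and its mono-culture level in clone V was above the at most 0.631 CPM of the other lines while its coculture mean of 163 lay among theirs (123 to 229). The 14 collagens rose in 6 cases and fell in 3, counts not far from the 30% and 31.5% of all genes. They had a lower response than the mean of the others in 10, against 18.4% of all genes. Col1a1, the other chain of type I collagen, rose from 40.9, 32.8, 29.5 and 22.8 CPM to 65.2, 209, 221 and 412 (2.85 ± 0.43), and Col6a3, of type VI collagen, from 0.747, 0.718, 0.686 and 0.71 CPM to 13, 57, 57.1 and 121. Both kept replicate 1 lowest and replicate 4 highest. Col5a1 instead fell by 0.75 ± 0.15, from the highest mono-culture mean of the 8 lines, 265 CPM, and Col12a1 went from 11.5, 18.5, 19.3 and 15.9 CPM to 1.14, 9.52, 9.22 and 27.7, with overlapping libraries and no called change unless coculture replicate 4 was left out (-1.29, adjusted p = 0.0283).

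Cd81, a tetraspanin of the cell surface, separated clone V from every other line. It was near absent from mono-cultured clone V (0.815, 1.08, 0.624 and 1.16 CPM), whereas the mono-culture means of the other lines were 141 to 253 CPM. In coculture it reached 3.08, 5.88, 7.11 and 12.2 CPM in clone V, in the library order of Thy1, and 122 to 219 elsewhere. Scara3, a scavenger receptor-like gene, followed the same pattern at lower levels: 0.543, 0.718, 0.25 and 0.323 CPM, then 0.936, 1.08, 1.08 and 3.12, with 20.3 to 53.1 CPM in the mono-cultures of the other lines. Both counted among the 55 genes with a higher response in clone V, each from a mono-culture mean below 1 CPM and Scara3 not without coculture replicate 4, and the part of fibroblast RNA in these rises was not tested. Cd68, a lysosomal protein used as a macrophage marker, also rose, from 2.31, 3.54, 5.61 and 4.2 CPM to 18.1, 14.5, 47 and 22, while Ptprc, Adgre1 and Cd3e, which define leukocytes, stayed at or below 0.0676 CPM in all 8 libraries.

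In the opposite sense, 15 genes were at 5 CPM or more in mono-cultured clone V and below 1 CPM in the mono-cultures of all other lines. Lrrn1, a leucine-rich repeat neuronal gene, held 16.5, 19.7, 17.7 and 19 CPM in mono-culture and 0.869, 1.62, 0.422 and 0.736 in coculture (-4.32 ± 0.35), and stayed at or below 0.107 CPM in the means of the other lines in both cultures. Lepr, the leptin receptor, was at 53.1 CPM in mono-culture and 43.9 in coculture, without a called change. The chemokine receptor Cxcr4 (13.7 and 9.38 CPM) and the VEGF receptor Kdr (7.62 and 7.24 CPM) likewise did not pass the test, apart from Cxcr4 without coculture replicate 4 (adjusted p = 0.0965). Of the 15 genes, 7 fell and 3 rose, where 31.5% of all genes fell and 30% rose. The mono-culture libraries of clone V enter both the choice of these genes and their fold changes.

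Epithelial markers as a sum fell from 2630 ± 169 to 1870 ± 152 CPM (SD, n = 4; exact two-sided permutation p = 0.0286, the smallest possible). This list too was written with earlier results known, so the p adds no separate support. The sum was also lower in coculture in clone H (3012 to 3301 CPM, then 1801 to 2999) and mostly so in KPC1 (2645 to 3108, then 1889 to 2674). Clone M went the other way (2083 to 3017, then 2885 to 3542). Most of the drop in clone V was Krt8, a simple-epithelial keratin, which went from 890, 921, 716 and 903 CPM to 322, 390, 256 and 288 (-1.45 ± 0.18, with -0.37 in the mean of the others). Krt18, its partner keratin, was at 1070, 1110, 997 and 1080 CPM and then 974, 1000, 874 and 836, without a called change (-0.21 ± 0.13). Cdh1, E-cadherin, was at 304 and 274 CPM, above the means of every other line in both cultures (at most 145 and 154). Pdx1, the pancreatic identity factor, fell by 1.52 ± 0.30, with a mean of -1.21 in the others. Over the list 2 of 13 genes rose and 4 fell, the latter a share near the 31.5% of all genes. Among 16 genes of epithelial-mesenchymal transition 7 rose and 4 fell, where 30% of all genes rose and 31.5% fell. Snai2 rose by 1.63 ± 0.23. Zeb1 (-0.82 ± 0.13) and Twist1 (-0.53 ± 0.11), which also encode transcription factors that repress epithelial genes, fell and were each the lowest response of the 8 lines.

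Of 18 immediate-early genes, 6 rose, a share near the 30% of all genes, 1 fell and 11 were not called in clone V (median 0.25, against -0.38 in the mean of the others). In 6 the response was higher than the mean of the others and in none lower. Klf4, a zinc-finger factor, rose from 28.9, 29.3, 39.1 and 38.8 CPM to 62.9, 60.1, 105 and 66.4 (1.12 ± 0.21) where the others averaged -0.38. Klf2 rose by 1.18 ± 0.37 with a mean of -0.73 in the others, and Atf3, a stress-induced partner of AP-1 factors, by 2.45 ± 0.57 (mean of the others 0.39). Fosl1, an AP-1 subunit, rose by 1.89 ± 0.25, and here the other lines rose too (0.39 to 1.54). MHC class I presentation rose in 8 of 12 genes with 1 lower, where 30% of all genes rose and 31.5% fell. The median was 0.98, against 0.18 in the mean of the others, 0.624 in clone H and 0.635 in clone K. Clone V had the largest fold change of the 8 lines in 3 of the 12. H2-D1, a classical class I heavy chain, went from 34.6, 36, 27.8 and 26.6 CPM to 94.6, 106, 107 and 105 (1.72 ± 0.15), and H2-K1, another such chain, rose by 1.29 ± 0.19. The difference from the mean of the others was called higher in 6 of the 12 genes, where 13.3% of all genes were. Reads of class I genes can be split among near-identical copies. Interferon-stimulated genes rose in 16 of 29 and fell in 4, with a median of 0.49 that was below that of the mean of the others (0.83). Ifit1 was at 0 in all mono-culture libraries of clone V and at 2.01, 2.84, 3.25 and 8.16 CPM in coculture, again in the library order of Thy1. Isg15, a ubiquitin-like protein, was at most 0.34 CPM in mono-culture and at 1.67, 2.57, 4.16 and 6.29 CPM in coculture, in that same order; the part of fibroblast RNA in these 2 rises was not tested. The inducer Irf1 fell by 1.03 ± 0.14.

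TGF-beta ligands and targets fell in 12 of 19 genes and rose in 4 (median -0.68, against -0.38). Clone E had a median of -0.71, so that clone V was not the lowest of the lines. The difference from the mean of the others was called higher in 4 genes and lower in 5, with a median of -0.01. Tgfbr2, the type II receptor, went from 337 to 134 CPM (-1.33 ± 0.15) and Smad3, its signal transducer, from 305 to 123 (-1.30 ± 0.13); each was the lowest response of the 8 lines. The type I receptor Tgfbr1 fell by 0.99 ± 0.15. Over all genes 30% rose and 31.5% fell in clone V, and the counts of the lists that follow stand against these shares. MAPK feedback genes fell in 8 of 18 and rose in 6, with Areg rising and Spry1 (-1.42 ± 0.18) and Etv1 (-1.16 ± 0.20) falling. Growth factor ligands and receptors fell in 10 of 19 and rose in 5. Igfbp3, which binds insulin-like growth factors, was at 665, 665, 694 and 741 CPM in mono-culture, above the at most 463 CPM of the other lines, and at 378, 409, 227 and 389 in coculture. YAP and TAZ targets rose in 4 of 16 and fell in 5; F3, tissue factor, rose by 1.60 ± 0.19 where the others averaged -0.05. Chemokines and cytokines rose in 11 of 19 and fell in 3, with Cx3cl1, the membrane-bound chemokine fractalkine, among the latter (-1.75 ± 0.25). NF-kB and STAT3 targets rose in 7 of 18 and fell in 6, again near the shares over all genes.

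Hypoxia targets rose in 12 of 20 genes and fell in 2 (median 0.84, against 0.33). Clone T had a median of 0.7, and clone V had the largest fold change of the 8 lines in 5 of the 20 genes. Ero1l, an oxidase of disulfide formation, rose from 36.5, 38, 48.2 and 52.3 CPM to 158, 202, 215 and 385 (2.46 ± 0.36), and Vegfa, the angiogenic growth factor, by 0.84 ± 0.20. Ndrg1, a stress-regulated gene, rose from 150, 249, 177 and 225 CPM to 338, 423, 611 and 470. Glycolysis genes rose in 10 of 21 and fell in 1. Pfkp, a phosphofructokinase, went from 5.43, 5.59, 5.74 and 6.07 CPM to 28.2, 29.3, 32.1 and 54.3 (2.66 ± 0.38), and Slc2a1, the glucose transporter GLUT1, rose by 0.94 ± 0.20. The coculture libraries followed the order of Thy1 for both Ero1l and Pfkp, and the part of fibroblast RNA was not tested. Of 35 nuclear respiratory chain subunits 15 rose and 5 fell, with a median of 0.13. Cell cycle genes rose in 25 of 35 and fell in 3 (median 0.83), with the differences from the other lines centred near 0 (median 0.03); Mcm2, a replication helicase subunit, rose by 0.83 ± 0.15 against 0.79. An exception was Ccnd1, cyclin D1, at 1020, 885, 792 and 716 CPM and then 691, 901, 604 and 618, without a called change in clone V (-0.28 ± 0.22), where the others averaged 0.59 (adjusted p of the difference = 0.0053). Myc rose by 1.07 ± 0.18 against 0.81, without a called difference (adjusted p = 0.32), and Myc and ribosome biogenesis genes rose in 22 of 26 and fell in 3.

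Among p53 targets 10 of 17 rose and 5 fell. Bbc3, the pro-death protein PUMA, rose by 1.60 ± 0.19 and Tnfrsf10b, the TRAIL receptor, which CHOP also raises, by 1.04 ± 0.16, while Sesn1, a sestrin, fell by 1.43 ± 0.21; all 3 differed from the mean of the others. Nrf2 and antioxidant genes rose in 8 of 26 and fell in 7, close to the 30% and 31.5% of all genes. Hmox1, heme oxygenase, went from 24, 34, 37.5 and 23.6 CPM to 112, 99.8, 181 and 152 (2.19 ± 0.28), and Gclc, the first enzyme of glutathione synthesis, rose by 0.57 ± 0.16 where the others averaged -0.79. Lysosome and autophagy genes rose in 11 of 24 and fell in 1, the cholesterol exporter Npc1 by 0.97 ± 0.15 and the autophagy receptor Sqstm1 by 0.70 ± 0.15. The gene that fell was Tfeb, a transcription factor for lysosomal genes (-1.31 ± 0.19). Integrins and laminins rose in 5 of 17 and fell in 3, with the integrin Itgb5 falling by 1.44 ± 0.18. Matrix proteases and inhibitors rose in 11 of 24 and fell in 8. Of the 3 leukocyte and endothelial markers with enough counts, Cd68 rose and Pecam1 fell, from 1.25 to 0.205 CPM.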

How the data were processed

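Gene counts of 64 polyadenylated, strand-specific libraries, sequenced as pairs of 76-base reads, were used as whole-number counts that the authors deposited in a single table. The submitters' processing notes name featureCounts, edgeR and the build mm10 without versions; the aligner and annotation were not given in the sources used here. A table of RPKM values, which the authors deposited beside the counts, entered only alternatives (limma on log2 scale). Of 39017 genes, 13527 had no count in any library and 14134 passed the expression filter.

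One edgeR 4.0.16 quasi-likelihood fit (R 4.3.3, TMM scaling) covered all 16 groups, with 4 libraries each, and gave the response of clone V, its difference from the mean response of the 7 other lines, and its difference from each line. Genes were called at an adjusted p under 0.1. Alternatives used limma 3.58.1 and DESeq2 1.42.0. The fit was tested on simulated data.

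The gene lists and all choices were made with earlier results of these data known. Named genes were, among those with a mean of at least 5 CPM over the 8 libraries of clone V and passing over provisional symbols (Gm, Rik) and ribosomal pseudogenes, the 8 largest called rises and falls without overlap, the 4 largest rises from below 1 CPM, and the 8 largest differences per direction from every other line; also, at any level, the members of each list with the smallest p (4 in clone V and 2 for the difference), markers and genes of the study. Ddit3, Chac1, Trib3, Cth, Mthfd2, Gpt2, Slc7a11, Pycr1, Pck2, Slc7a3, Slc38a2, Nupr1, Vldlr, Aars, Tars, Hspa5, Hsp90b1, Lars, Mars, Wnt7a, Apcdd1, Cd81, Scara3, Lepr, Cxcr4 and Fbln2 were chosen after their values were seen. Symbols and positions followed GENCODE M21. Replicate numbers were not taken as pairs. Some genes that this rule names are not reported here.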

Additional observations from a re-analysis of the deposited data

Results flagged for a closer look

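Of 118 sets of 4 libraries examined in clone V (per-library values of the genes and marker sums given above), 12 held a library whose gap to the other 3 exceeded Dixon's 95% critical value; chance flags about 1 in 20 sets. In coculture, replicate 4 was low for Atf4 (945 CPM, others 1120 to 1150) and high for Scara3 (3.12 CPM, others 0.936 to 1.08), and replicate 1 was low for Aldh1l2 (69.2 CPM, others 111 to 114), Scd2 (1500 CPM, others 1960 to 2010) and H2-D1 (94.6 CPM, others 105 to 107). Coculture replicate 3 was high for Ddit3 (324 CPM, others 148 to 169), Klf4 (105 CPM, others 60.1 to 66.4) and the summed leukocyte and endothelial markers (55.92 CPM, others 22.97 to 28.38), and low for Igfbp3 (227 CPM, others 378 to 409). In mono-culture, replicate 3 was high for Ptgs2 (47.3 CPM, others 13.8 to 17.1), low for Krt8 (716 CPM, others 890 to 921), and the only library with a count of Lox (0.0624 CPM, others 0).

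The response of clone V differed from the mean response of the other 7 lines in 1877 genes upward and 2600 downward, and from each of them in 55 and 139 genes, by edgeR's tests of the difference itself.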

How the results depend on the processing

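For 137 genes named above, none of the called values reversed under any alternative, and 97.8% of 5459 recomputed values stayed on their side of the threshold (80 lost the call and 40 gained it). The counts of genes called in clone V and for its difference from the mean of the others stayed within 1.5 times under every alternative. Leaving out 1 clone V library gave 4006 to 4109 higher and 4063 to 4356 lower genes in clone V, 1547 to 1810 and 2144 to 2583 for the difference, 31 to 31 stress response genes higher in clone V and 28 to 30 for the difference. The counts of genes that differed from each other line moved most. They were 24 higher and 80 lower at an adjusted p under 0.05, 29 and 90 when every gene with at least 1 count in any library was kept, and 25 to 71 and 86 to 174 when 1 library was left out; the cause was not tested. Of the 55 and 139 genes, 15 and 61 were found under all 15 alternatives that gave these counts, among them Psat1, Aldh1l2, Deptor, Xbp1 and Manf, and Wnt9a, Rbms3, Notch3, Fgfr1 and Mmp15. Phgdh was found under 12 of these, Grem1 under 13, Sars under 10, Hsp90b1 under 8 and Trps1 under 4.

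Replicate numbers shared between cultures were examined as a possible pairing. Deviations from the group means correlated at 0.073, 0.206, 0.106 and 0.161 for numbers 1 to 4, not all above 0.1. Each mono-culture library correlated best with the coculture library of its own number, as did coculture replicates 2 to 4 in turn, a hint of pairing, whereas coculture replicate 1 correlated best with mono-culture replicate 3 (0.0903). The numbers were not taken as pairs. With the replicate block 4406 genes were higher and 4696 lower in clone V, 2194 and 3010 for the difference, and 127 higher and 236 lower than each other line, 191 of the 194 genes being shared.

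At totals of 14424227 to 19486215 counts, genes at or near 0 in a group, such as Thy1 in mono-cultured clone V or Rbms3 in the mono-cultures of the other lines, have no bounded fold change beyond the floor given. All results are RNA levels, and that floor covers counting error only.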
